A study of Mus musculus with 24 samples.

Results

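Aminoacyl-tRNA synthetases, the enzymes that join each amino acid to its transfer RNA, were followed in CD8+ T cells of a mouse model of acute graft versus host disease. The set held 35 genes, 20 of them for cytosolic enzymes and 15 for mitochondrial enzymes, whose symbols end in the digit 2. They were every gene of that name list with a probe on a whole-genome expression array, 44 of 39429 gene probes. Of the 35 genes, 27 had a probe that the scanner flagged as well above background on every array of some group, with 1 miss allowed, and these 27 were tested among 9423 genes. They comprised 15 cytosolic and 12 mitochondrial genes. The 8 genes that did not pass were Dars, Eprs, Mars, Rars and Yars of the cytosolic set and Mars2, Nars2 and Wars2 of the mitochondrial set. No probe of Dars, Rars, Yars, Nars2 or Wars2 was well above background on any of the 24 arrays, so these genes have only an upper bound on their signal.

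The recipients were irradiated C57Bl/6 Act-mOVA mice, which carry an ovalbumin transgene under the CAG promoter, and they received bone marrow and splenocytes of C57Bl/6 OT-I mice, whose CD8+ T cells bear a transgenic receptor for ovalbumin. Donors and recipients were 8 to 16 weeks old, recipients were female, and irradiation was 11 Gy given in 2 fractions. The grafted OT-I CD8+ T cells carried CD45.1, whereas the other graft cells and the hosts carried CD45.2, and the cells were selected on CD45.1 with magnetic beads, not on CD8. The control group was cells taken from the graft on day 0 (n = 4 arrays), and the day 4 groups were cells recovered from blood, liver, lung and small intestine of the recipients (n = 5 arrays each). Each sample's RNA, 300 pg, was amplified linearly in 2 rounds, labelled with Cy3 and hybridised to an array of 1 colour. Both the graft and the day 4 groups thus carry the OT-I transgenes, and the samples analysed here include no host without the ovalbumin transgene. The labels do not say that each array came from its own animal, so the p-values describe the spread among these samples, which may be technical.

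Each synthetase activates its amino acid with ATP and transfers it to the matching transfer RNA, and the charged transfer RNA then serves the ribosome. Most animals keep separate nuclear genes for the cytosolic enzyme and for the enzyme imported into mitochondria, although Gars and Kars each serve both compartments from 1 gene. Several cytosolic enzymes are held in a multi-synthetase complex by the scaffold proteins Aimp1, Aimp2 and Eef1e1. When amino acids run short, uncharged transfer RNA activates the kinase GCN2, and the transcription factor ATF4 then raises many cytosolic synthetase genes together with genes of amino acid synthesis and uptake. Naive T cells are small and make little protein, and T cells that meet antigen grow and raise protein synthesis before they divide.

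Between 22.6% and 38.6% of gene probes were well above background on an array. All graft arrays lay on 1 slide and the day 4 arrays on 5 others, 1 array of each site per slide, so that slide and the difference between graft and day 4 cannot be told apart. The lung 4 and intestine 4 arrays were left out together in an alternative run chosen after seeing the data. No measure of their distance from the other day 4 arrays is given here. The T cell markers Cd3d, Cd3e, Cd3g, Cd2, Cd8a and Cd8b1 were well above background on all 24 arrays. The log2 of their summed signal, the measure used for every marker list here, ran from 7.33 to 8.12 on graft arrays. On day 4 arrays it ran from 6.71 to 8.74. Markers of other cells moved with the groups. The 5 tested B cell markers given here were called lower on day 4. The log2 of their summed signal ran from 7.63 to 7.99 on graft arrays and from 1.32 to 4.44 on day 4 arrays. Of these markers, Ms4a1 and Spib were well above background on 0 of the 20 day 4 arrays. Of 8 tested neutrophil and monocyte markers 7 were called lower, with summed levels of 8.77 to 9.08 on graft arrays and 5.55 to 7.60 on day 4 arrays. On graft arrays that sum lay above the T cell sum, but the lists hold different genes and probes, so the sums do not give shares of cells. Dendritic cell and macrophage markers summed to 6.95 to 7.40 on graft arrays and 2.47 to 8.04 on day 4 arrays. Erythroid markers summed to 3.13 to 8.16 on graft arrays and -1.60 to 6.07 on day 4 arrays. Surfactant genes of lung epithelium summed to 0.92 to 7.31 on lung arrays and to at most 0.86 elsewhere. The part of these cells in the synthetase values was not tested, and in such bulk samples fewer cells of a type and less RNA per cell cannot be told apart.

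Promoter sequences from RefSeq (GRCm38.p6, 250 bases before to 50 bases after a transcript start) were at hand for 25 of the 35 genes, and none was held for Cars, Hars, Hars2, Lars, Mars, Nars, Rars, Pars2, Vars or Wars. In all 6 published motifs were searched on both strands in the promoters of 12 cytosolic and 13 mitochondrial genes. The C/EBP-ATF response element TGATGNAA, to which ATF4 binds, was present in 5 of 12 cytosolic genes (Aars, Gars, Iars, Tars and Yars), in 0 of 13 mitochondrial genes and in 3.97% of all 32851 promoters of the table. Its form TTGCATCA, which overlaps it, was in 4 cytosolic genes and 0.895% of all promoters. The E-box CACGTG, bound by MYC and related factors, was in Aars, Farsb, Iars and Tars, in Ears2 of the mitochondrial genes and in 7.15% of all promoters. CCAAT, the NF-Y box, was in 6 cytosolic and 6 mitochondrial genes and in 37.4% of all promoters. TGACGTCA, the cAMP response element, and the NRF1 motif were in 0 of the 25 genes, against 1.79% and 0.971% of all promoters. The 4 promoters below are those of tested genes with the response element, and show where it lies relative to the E-box. They read 5′ to 3′ on the gene's strand, with matches to TGATGNAA (here on the other strand) and to CACGTG in capitals; a match is a description of the letters and not a measured binding site.

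Aars, GRCm38.p6 chr8:111033592-111033891, plus strand: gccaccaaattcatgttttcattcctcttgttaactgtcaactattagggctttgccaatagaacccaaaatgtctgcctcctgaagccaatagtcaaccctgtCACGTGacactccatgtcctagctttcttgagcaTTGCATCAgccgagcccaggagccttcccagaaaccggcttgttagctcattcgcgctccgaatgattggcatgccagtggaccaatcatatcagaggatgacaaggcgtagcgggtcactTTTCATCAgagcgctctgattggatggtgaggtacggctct
Gars, GRCm38.p6 chr6:55037751-55038050, plus strand: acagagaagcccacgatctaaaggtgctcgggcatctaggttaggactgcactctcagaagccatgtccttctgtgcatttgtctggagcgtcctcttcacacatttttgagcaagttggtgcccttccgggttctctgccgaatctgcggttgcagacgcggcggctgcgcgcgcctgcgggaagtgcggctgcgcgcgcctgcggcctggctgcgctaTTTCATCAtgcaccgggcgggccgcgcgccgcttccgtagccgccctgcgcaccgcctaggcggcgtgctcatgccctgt
Iars, GRCm38.p6 chr13:49681880-49682179, plus strand: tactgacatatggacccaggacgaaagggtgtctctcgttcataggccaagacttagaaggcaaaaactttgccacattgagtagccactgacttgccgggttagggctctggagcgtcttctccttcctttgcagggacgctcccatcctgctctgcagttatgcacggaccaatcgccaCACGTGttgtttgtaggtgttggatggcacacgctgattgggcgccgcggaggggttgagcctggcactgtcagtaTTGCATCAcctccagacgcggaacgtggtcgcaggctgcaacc
Tars, GRCm38.p6 chr15:11399609-11399908, minus strand: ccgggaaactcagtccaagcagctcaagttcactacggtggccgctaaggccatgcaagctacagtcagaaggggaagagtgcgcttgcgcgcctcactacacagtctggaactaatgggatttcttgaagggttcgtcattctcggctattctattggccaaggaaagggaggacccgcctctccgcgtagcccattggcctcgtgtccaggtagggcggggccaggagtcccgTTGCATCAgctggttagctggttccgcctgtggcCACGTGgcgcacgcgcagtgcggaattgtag

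In Aars the response element occurred at both -112 and 10 relative to the start, with the E-box at -146. In Iars the E-box began at -69 and the response element at 8, and in Tars the response element began at -15 and the E-box at 20. In Gars only the response element matched, at -30. All 4 of these genes were called higher on day 4, as given with their values below, but so were tested cytosolic genes without the response element in the window, Farsb, Kars, Qars and Sars.

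The first comparison asked how the synthetase transcripts of the selected cells recovered on day 4 differed from those of the graft samples, which also held the markers of other cells given above. Transcripts of cytosolic enzymes were higher on day 4 almost throughout, with 13 of 15 called higher and 0 called lower (0 also at an unadjusted p under 0.05), and fitted differences above 2 on the log2 scale in the enzymes for isoleucine, valine, tryptophan and leucine. Transcripts of mitochondrial enzymes were called higher for 6 of 12 genes and lower for 3. That share lower, 25%, was near the share of all tested genes given next. A gene was called when its limma adjusted p over the 9423 genes was under 0.05 for the mean of the 4 sites minus the graft, and on that rule 34.4% of all tested genes were higher and 19.0% lower. The median log2 difference was 1.35 over the cytosolic genes, 0.86 over the mitochondrial genes and 0.23 over all tested genes. A gene entered only if some group was bright enough, so a gene seen through its day 4 signal alone was bound to differ, and 5 of the 27 genes (Iars and 4 mitochondrial ones) were well above background on 0 of the 4 graft arrays.

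Each site was also compared with the same 4 graft arrays. In blood 13 cytosolic and 7 mitochondrial genes were called higher, against 35.3% of all tested genes. In liver the counts were 12 and 5, against 34.4%. In lung they were 12 and 4, against 25.8%, and in intestine also 12 and 4, against 22.1%. Limma called 0 cytosolic genes lower at each of the 4 sites (0 also at an unadjusted p under 0.05). In blood, liver, lung and intestine, in that order, 1, 2, 3 and 2 mitochondrial genes were called lower, against 21.1%, 16.0%, 11.5% and 12.7% of all tested genes. In the same order of sites, the median cytosolic difference was 1.69, 1.49, 1.22 and 1.06 and the median mitochondrial difference 1.40, 0.72, 0.65 and 0.36. Called higher at all 4 sites were 11 cytosolic genes (Aars, Cars, Gars, Iars, Kars, Lars, Qars, Sars, Tars, Vars and Wars) and 4 mitochondrial genes (Rars2, Sars2, Tars2 and Yars2), while Cars2 was called lower at all 4. The other probe of Cars2 was called higher at all 4 sites, and the other probe of Tars2 was negative at all 4 and called lower in blood and liver. In 8 cytosolic genes and 1 mitochondrial gene, Yars2, all 20 day 4 arrays lay above every graft array. Neither such separation nor calls at all 4 sites were counted over all tested genes, so these counts have no background share. Iars and Yars2, which are among them, were well above background on 0 of the 4 graft arrays.

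The scaling of the arrays set the level of the whole comparison. The median of all tested genes was 0.23 here, and between -0.32 and 0.29 over 5 other scalings. The share of called genes that were higher was 64.4% here and ran from 36.5% to 71.2%. Relative to the median of all genes, the cytosolic median was 0.99 to 1.12 above it over the 6 scalings. Called higher were 11 to 13 cytosolic genes, and lower 0 or 1. The mitochondrial median was 0.10 to 0.66 above the median of all genes, with 4 to 6 genes called higher and 3 lower. Scaling to the 75th percentile or median of detected probes shifts all genes of an array alike. Those 2 scalings therefore had to repeat the main distances, 1.12 and 0.63. The authors' deposited values closely match quantile normalization, and both gave 0.99 and 0.66. Normexp background gave 1.08 and 0.10.

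**Figure D1:**
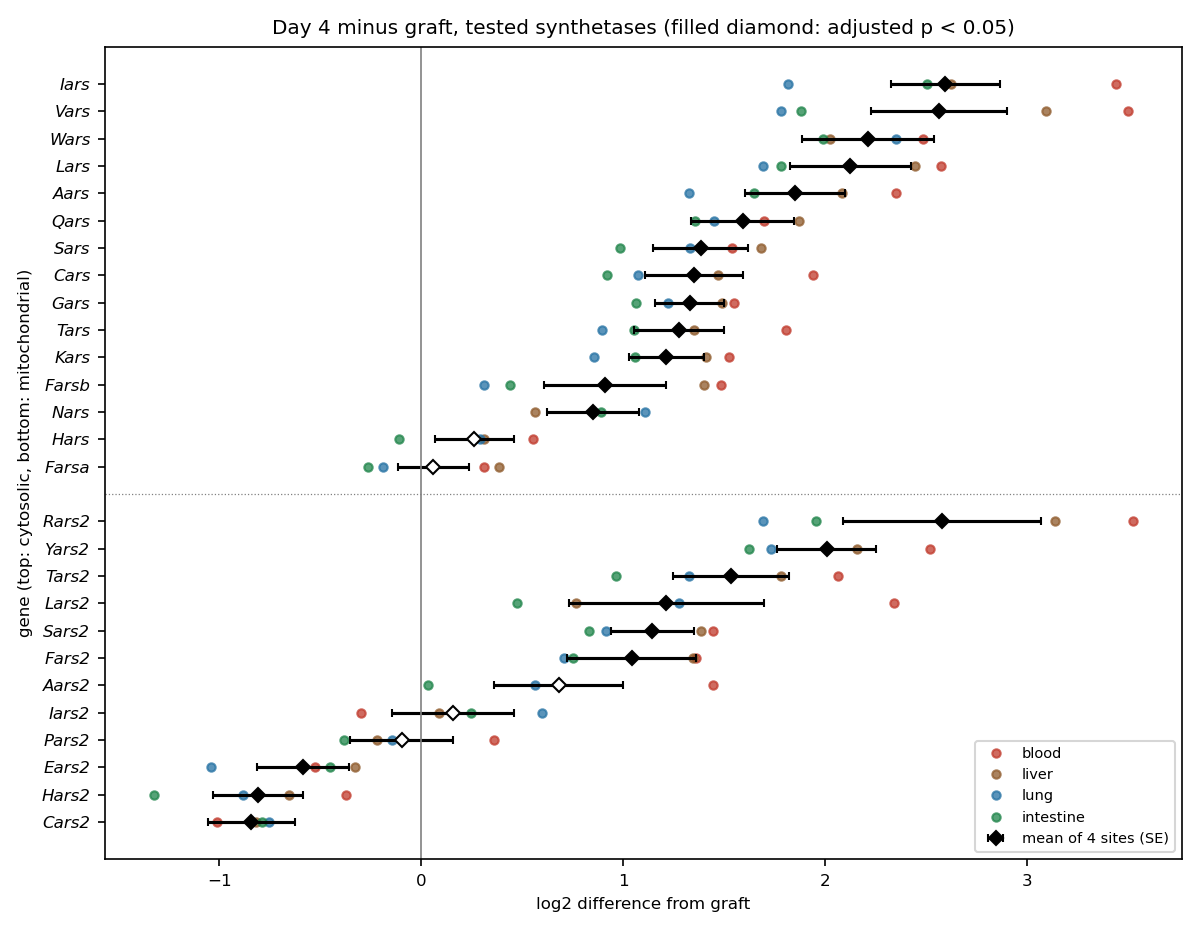
Log2 difference from the graft mean (horizontal axis) of the 27 tested synthetase genes, 15 cytosolic above and 12 mitochondrial below. Coloured points are the 4 sites (5 arrays each against 4 graft arrays), diamonds the mean of the sites with its standard error, filled where the limma adjusted p is under 0.05; the cytosolic diamonds run from 0.06 to 2.59 and the mitochondrial ones from -0.84 to 2.58.

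**Figure D2:**
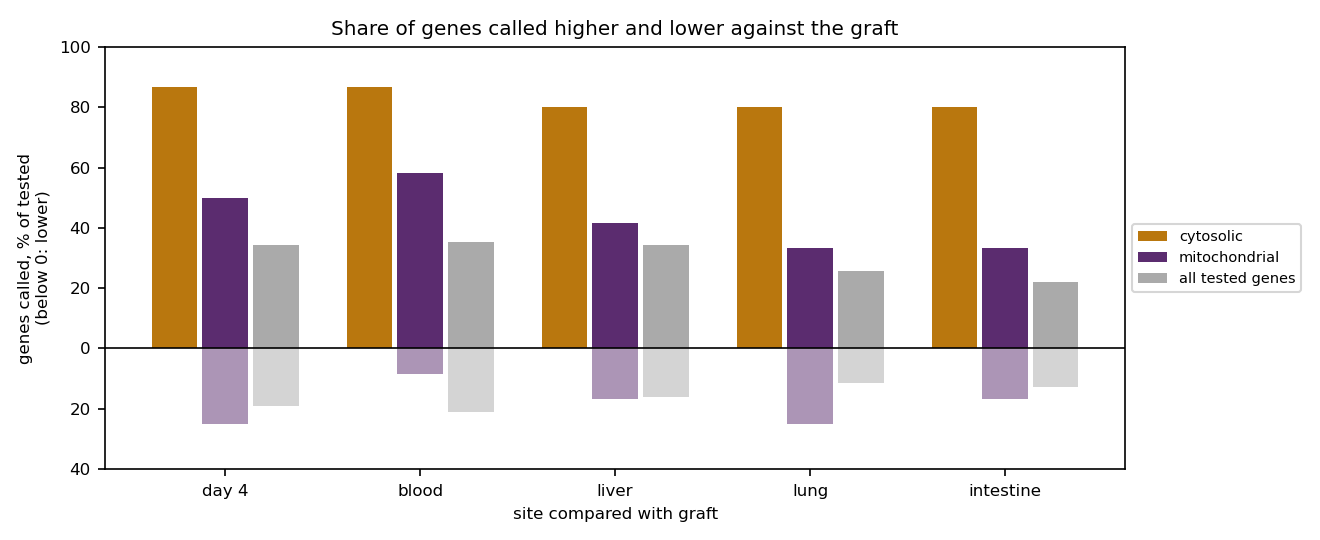
Percentage of tested genes called higher (above 0) or lower (below 0, paler) against the graft, for 15 cytosolic genes, 12 mitochondrial genes and all 9423 tested genes, for the mean of the sites and for each site. The cytosolic bars stand between 80.0% and 86.7% higher in all 5 comparisons, with none lower.

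Among the cytosolic genes the fitted differences of Iars and Vars were close, and their order cannot be given, since few or no graft arrays measured them. Iars encodes the isoleucyl enzyme of the multi-synthetase complex. Levels are log2 processed signal minus the array's 75th percentile over gene probes, so that 0 is the brightness of a probe at that percentile, and arrays are listed from replicate 1 on. The log2 level was -0.63, -0.60, -1.38 and -1.40 in the graft arrays and 1.94, 2.27, 2.95, 2.05 and 2.98 in the blood arrays. It was 1.33, 1.29, 2.33, 1.55 and 1.59 in the liver arrays, 1.34, 1.01, 1.38, -0.01 and 0.36 in the lung arrays and 1.29, 1.12, 2.07, 1.09 and 1.93 in the intestine arrays. Every day 4 array was above every graft array, and blood was highest. The difference was 2.59 (SE 0.27, limma adjusted p = 6.60e-08), but the probe was well above background on 0 of 4 graft arrays, so the transcript was at least 4.89-fold higher on day 4, and by site at least 2.85-fold in lung, 4.59-fold in intestine, 4.98-fold in liver and 8.79-fold in blood. These bounds set the mean day 4 signal against the dimmest probe still well above background on each graft array, or the gene's own probe where that was brighter.

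Vars encodes the valyl enzyme. Log2 levels of the gene were 0.13, -1.03, -1.57 and -0.16 in the graft arrays and 2.40, 2.96, 2.94, 3.16 and 2.75 in the blood arrays. It was 2.66, 2.94, 2.79, 2.34 and 1.46 in the liver arrays, 2.12, 1.82, 1.12, -0.06 and 0.62 in the lung arrays and 1.24, 0.83, 2.00, 0.78 and 1.26 in the intestine arrays. Of the 20 day 4 arrays 19 exceeded every graft array, the exception being lung 4, which lay inside the graft range. The difference was 2.56 (SE 0.34, limma adjusted p = 1.50e-06), and since 1 of 4 graft arrays was well above background, the fitted 5.91-fold rests largely on dim graft signals. Wars, the tryptophanyl enzyme and a gene induced by interferon gamma, was well above background on all 4 graft arrays. Its log2 level was 0.01, 0.33, 0.67 and 0.96 in the graft arrays and 2.45, 3.07, 3.28, 3.19 and 2.88 in the blood arrays. It was 2.50, 2.75, 2.80, 2.62 and 1.91 in the liver arrays, 2.90, 4.40, 1.99, 1.49 and 3.42 in the lung arrays and 2.43, 2.87, 2.06, 2.66 and 2.39 in the intestine arrays. No day 4 array overlapped the graft, and the lung arrays were the most scattered. The difference was 2.21 (SE 0.33, limma adjusted p = 6.68e-06), or 4.63-fold, and it belongs to 1 of the gene's 2 probes, as set out below.

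Lars, the leucyl enzyme that also senses leucine for the mTORC1 kinase, was higher by 2.12 (SE 0.30, limma adjusted p = 3.81e-06), or 4.35-fold. Its level ran from 0.39 to 1.60 on graft arrays, and 19 of 20 day 4 arrays were above that range, all but lung 4. Aars, the alanyl enzyme, was higher by 1.85 (SE 0.25, limma adjusted p = 1.98e-06), Qars, the glutaminyl enzyme, by 1.59, and Sars, the seryl enzyme, by 1.38. Cars, Gars, Tars and Kars, for cysteine, glycine, threonine and lysine, were higher by 1.35, 1.33, 1.28 and 1.21, and Nars, for asparagine, by 0.85, the limma adjusted p of these 7 genes lying between 1.16e-06 and 0.00336. Of these 7, Nars lost its call under 4 of 5 other scalings.

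The 2 subunits of the phenylalanyl enzyme gave unlike values. Farsb, the beta subunit, was higher by 0.91 (SE 0.30, limma adjusted p = 0.0152), with 12 of 20 day 4 arrays above every graft array and 1 of 4 graft arrays well above background, and it lost the call without graft replicate 1 (adjusted p = 0.0927) and under 2 of 5 other scalings. Farsa, the alpha subunit, was 3.59, 3.59, 4.09 and 3.71 in the graft arrays and 3.79, 4.02, 4.24, 4.14 and 4.09 in the blood arrays. It was 3.96, 4.29, 4.50, 3.99 and 3.91 in the liver arrays, 3.95, 3.61, 3.54, 3.39 and 3.30 in the lung arrays and 3.38, 3.17, 4.00, 3.09 and 3.75 in the intestine arrays. The groups overlapped throughout, and the difference was 0.06 (SE 0.18, limma adjusted p = 0.790). Its sign turned negative under 4 other scalings, with a call for lower under 3 of them. The difference between the subunits was not tested. Hars, the histidyl enzyme, also missed the threshold at 0.26 (SE 0.20, limma adjusted p = 0.265), and its sign turned under the same 4 scalings.

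The tested enzymes of the multi-synthetase complex, Iars, Kars, Lars and Qars, were all 4 called higher, with a median difference of 1.86. The other 4 complex enzymes, Dars, Eprs, Mars and Rars, did not pass the signal filter. Of the scaffold genes, Aimp2 was called higher by 1.11 (limma adjusted p = 3.88e-05), and Aimp1 was at 0.11 (limma adjusted p = 0.718), a value that was negative under 4 other scalings. Gars and Kars, which serve both compartments, were both called higher, and without these 2 genes 11 of 13 cytosolic genes were. By structural class, class I enzymes, in which the catalytic core is a Rossmann fold, had 9 of 12 higher and 2 lower, and class II enzymes 10 of 15 higher and 1 lower.

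Among the mitochondrial genes, Rars2, the arginyl enzyme, had the highest fitted difference but a low bound on it. The log2 level was -2.49, -2.70, -3.18 and -2.51 in the graft arrays and 0.30, 0.87, 1.18, 0.78 and 0.89 in the blood arrays. It was 0.58, 0.78, 0.99, 0.38 and -0.63 in the liver arrays, 0.44, 0.02, -0.88, -2.11 and -2.62 in the lung arrays and -0.40, -2.19, 0.04, -2.27 and 0.98 in the intestine arrays. Of the 20 day 4 arrays 19 were above every graft array, and lung and intestine each had low arrays near the graft. The difference was 2.58 (SE 0.49, limma adjusted p = 1.40e-04), but with 0 of 4 graft arrays well above background the transcript was at least 1.48-fold higher on day 4, at least 2.85-fold in blood and 2.18-fold in liver, and no bound above 1 could be given in lung or intestine. Yars2, the tyrosyl enzyme, had a higher bound. Log2 levels of the gene were -1.09, -1.68, -1.13 and -1.32 in the graft arrays and 1.00, 1.12, 1.47, 1.03 and 1.46 in the blood arrays. It was 0.44, 1.05, 1.10, 1.33 and 0.35 in the liver arrays, 0.58, 0.52, 0.36, 0.35 and 0.33 in the lung arrays and 0.52, 0.90, 0.79, -1.02 and 0.41 in the intestine arrays. All 20 day 4 arrays were above every graft array, intestine 4 by the least. The difference was 2.01 (SE 0.25, limma adjusted p = 5.67e-07), and the transcript was at least 2.65-fold higher, since it too was well above background on 0 of 4 graft arrays.

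Tars2, the threonyl enzyme, was higher by 1.53 (SE 0.29, limma adjusted p = 1.14e-04), with 18 of 20 day 4 arrays above every graft array, on 1 of its 2 probes. Sars2 (seryl) and Fars2 (phenylalanyl), both well above background on all 20 day 4 arrays, were higher by 1.14 (SE 0.20, limma adjusted p = 7.01e-05) and 1.04 (SE 0.32, limma adjusted p = 0.00925), and Fars2 lost the call under 4 of 5 other scalings. Lars2, the leucyl enzyme, passed at 1.21 (SE 0.48, limma adjusted p = 0.0389), but its probe was well above background on 0 of 4 graft and 8 of 20 day 4 arrays. Only in blood did that allow a bound, of at least 1.31-fold, and the call was lost without any 1 of the 4 graft arrays (adjusted p = 0.0667 to 0.102). Aars2, the alanyl enzyme, was likewise dim on the 4 graft arrays, missed the threshold at 0.68 (SE 0.32, limma adjusted p = 0.0772), though it passed without liver replicate 5 or lung replicate 4 (adjusted p = 0.0221 and 0.0214), and was at least 1.61-fold higher in blood.

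Cars2, the cysteinyl enzyme, lay at the other end. Its log2 level was 0.76, 0.92, 0.84 and 0.47 in the graft arrays and -0.09, -0.30, -0.41, -0.41 and -0.12 in the blood arrays. It was -0.44, -0.00, 0.19, 0.02 and -0.12 in the liver arrays, -0.49, 0.14, -0.05, 0.35 and 0.02 in the lung arrays and -0.51, 0.30, -0.01, 0.84 and -0.82 in the intestine arrays. Of the 20 day 4 arrays 19 were below every graft array, the exception being 1 intestine array. The difference was -0.84 (SE 0.21, limma adjusted p = 0.00231), on the brighter of 2 probes that disagree. Hars2, the histidyl enzyme, was lower too. The log2 level was 3.06, 3.14, 3.56 and 3.14 in the graft arrays and 2.79, 2.76, 2.90, 2.49 and 3.31 in the blood arrays. It was 2.33, 2.81, 2.84, 2.44 and 2.41 in the liver arrays, 2.27, 2.46, 2.84, 1.47 and 2.64 in the lung arrays and 1.68, 1.67, 1.67, 1.70 and 2.78 in the intestine arrays. Again 19 of 20 day 4 arrays were below every graft array, the exception being 1 blood array, and 4 of the 5 intestine arrays were below every blood and liver array. The difference was -0.81 (SE 0.22, limma adjusted p = 0.00417). Ears2, the glutamyl enzyme, was lower by -0.59 (SE 0.23, limma adjusted p = 0.0338), a call lost without graft replicate 1, 3 or 4 (adjusted p = 0.0631, 0.145 and 0.0606). Iars2 and Pars2, for isoleucine and proline, missed the threshold at 0.16 and -0.10 (limma adjusted p = 0.676 and 0.762).

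**Figure D3:**
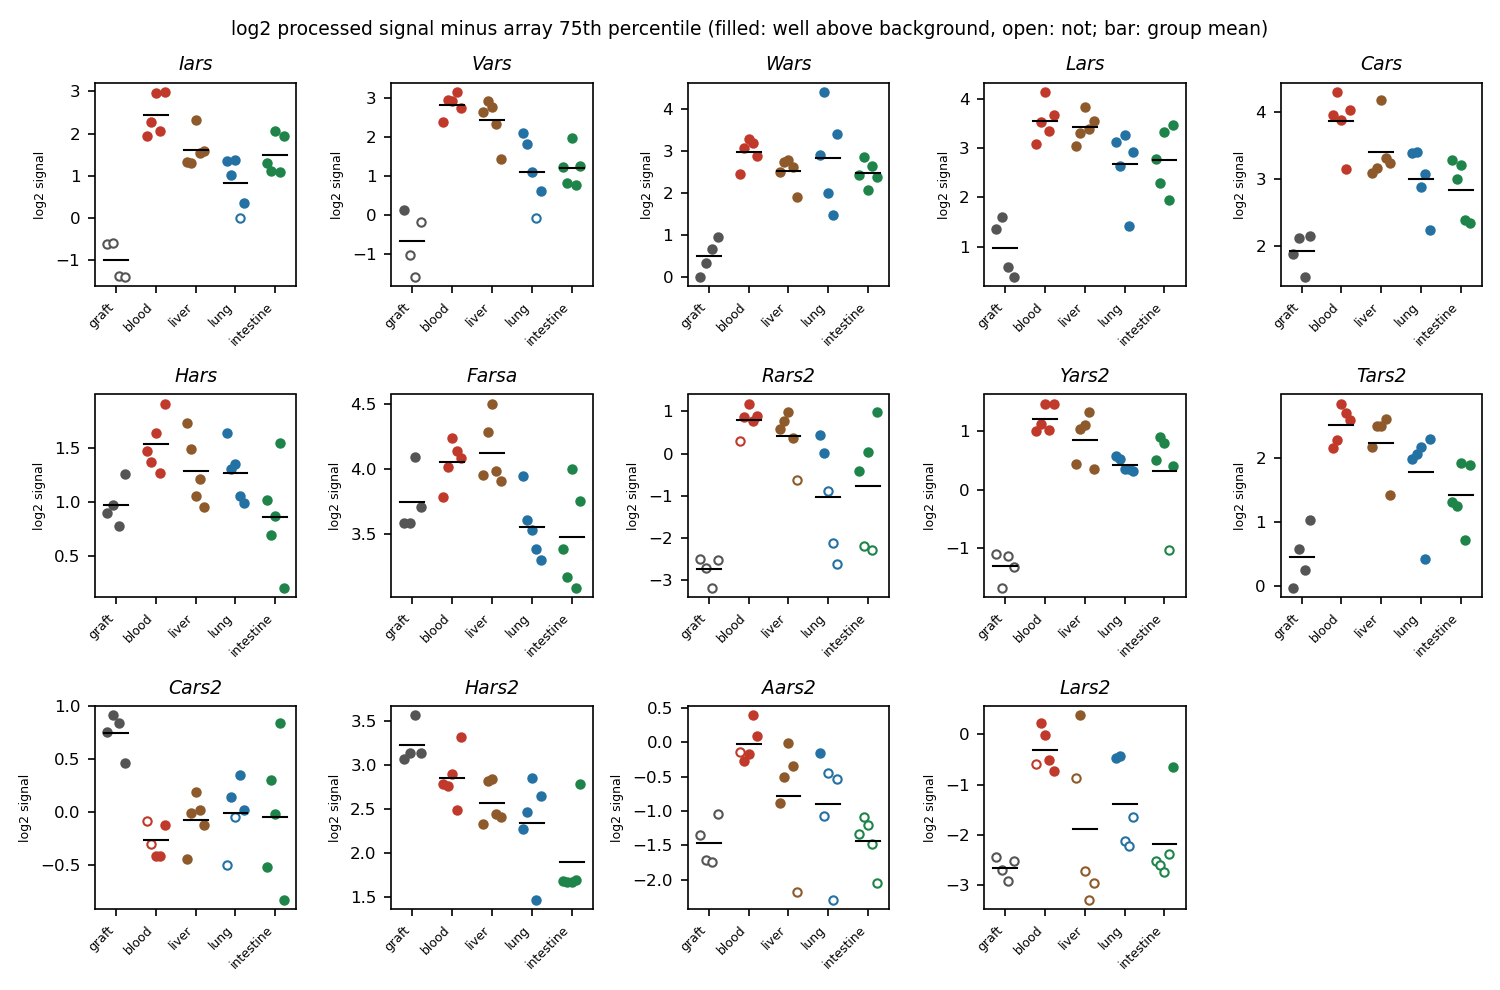
Log2 processed signal minus the array's 75th percentile (vertical axis) on each of the 24 arrays for 14 synthetase genes, by group; filled points are well above background, open points are not, and bars are group means. Iars, Rars2, Yars2, Aars2 and Lars2 have only open points in the graft, and Cars2 and Hars2 have 19 of 20 day 4 arrays below the graft.

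The 2 enzymes for 1 amino acid can be compared within an array, where the array's scaling cancels. For 7 amino acids with 1 gene per compartment both genes were tested. In these pairs the cytosolic minus mitochondrial log2 signal was followed from graft to day 4, with probe brightness cancelling in the change. Phenylalanine, whose cytosolic enzyme has 2 subunit genes, was not paired, although Farsa, Farsb and Fars2 were all tested. Their differences from the graft were 0.06, 0.91 and 1.04, so neither cytosolic gene exceeded Fars2. Among the 7 pairs the change favoured the cytosolic gene for 6, with a median of 1.07. It was 2.44 for isoleucine, where 18 of 20 day 4 arrays were above every graft array, and 2.19 for cysteine, with 19 of 20. It was 1.17 for alanine with 17 of 20 and 1.07 for histidine with 19 of 20. For leucine the change was 0.91, with 10 of 20 above the graft. For serine it was 0.24 with 11 of 20, and for threonine -0.26, where 6 of 20 arrays were below every graft array and 2 above. The standard deviation among the 4 graft arrays was 0.19 to 0.72, and each change exceeded the one of its own pair except that for threonine. The serine change did so narrowly and turned negative under 2 other scalings. The threonine change turned positive with the other Tars2 probe (1.86), with probes averaged (0.80) and with normexp background (0.0348).

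For histidine the change of the pair combined a Hars difference of 0.26, which missed the threshold, with a Hars2 difference of -0.81. It therefore does not show a rise of Hars. With the graft mean set to 0, the Hars minus Hars2 difference was 0.08, 0.08, -0.54 and 0.37 on graft arrays, 0.93, 0.86, 0.99, 1.03 and 0.84 on blood arrays and 1.65, 0.92, 0.46, 1.02 and 0.79 on liver arrays. It was 1.62, 1.09, 0.75, 1.84 and 0.59 on lung arrays and 1.58, 1.27, 1.45, 2.09 and -0.32 on intestine arrays. Only 1 intestine array was not above the graft, and the site means were close, from 0.93 to 1.21. For cysteine the site means ran from 1.71 to 2.95 and were highest in blood, and with the other Cars2 probe the change was -0.15. The mitochondrial gene was not above background on any graft array for alanine and leucine, nor the cytosolic gene for isoleucine, so those 3 changes carry that limit.

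**Figure D4:**
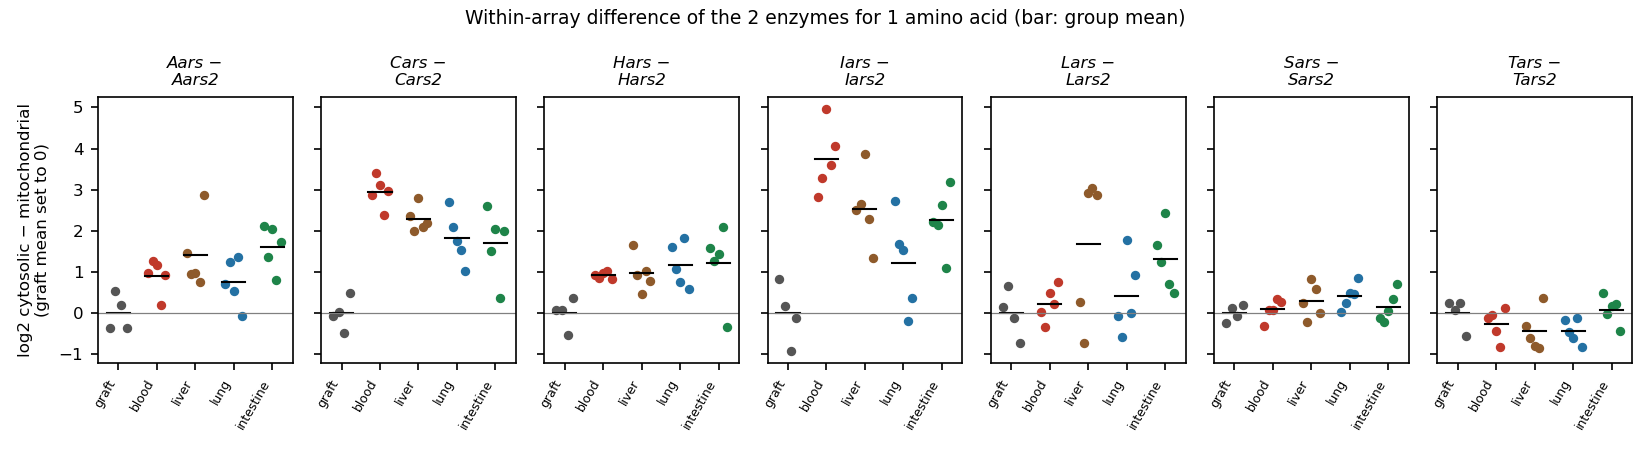
Cytosolic minus mitochondrial log2 signal on each array (vertical axis), with the mean of the 4 graft arrays set to 0, for the 7 amino acids with both genes tested; points are arrays and bars group means. The isoleucine and cysteine pairs rise furthest, and the serine and threonine pairs stay near the graft.

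Of 4 genes with 2 probes that passed the filter, 3 gave opposite signs, and in each the probe nearer the 3′ end of the gene was higher on day 4 and the upstream probe was not. Positions are those of the scanner files on build mm9, and all 3 genes lie on the minus strand. In Wars the probe at chr12:110098245-110098304 differed from the graft by 2.02 in liver, 2.35 in lung, 1.99 in intestine and 2.48 in blood. The probe at chr12:110104366-110104425, 6121 bases upstream, differed by -0.41 in liver, -0.22 in lung, -0.30 in intestine and -0.23 in blood, and by -0.29 overall (limma adjusted p = 0.182). Both probes were well above background on all graft arrays. The reported change of Wars thus depends on the probe.

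In Tars2 the 3′ probe at chr3:95543899-95543958 differed by 1.78 in liver, 1.33 in lung, 0.96 in intestine and 2.06 in blood. The probe at chr3:95549701-95549760, 5802 bases upstream, differed by -0.69 in liver, -0.19 in lung, -0.65 in intestine and -0.79 in blood, and it was called lower overall at -0.58 (limma adjusted p = 0.0372). In Cars2 the probe used, at chr8:11547757-11547816, is the upstream one. The dimmer probe at chr8:11516152-11516211, 31605 bases further 3′, was well above background on 0 of 4 graft, 4 of 5 blood, 3 of 5 liver, 1 of 5 lung and 1 of 5 intestine arrays. It was called higher at 1.50 (limma adjusted p = 1.62e-05), so that the sign for Cars2 also depends on the probe. The probes of Iars2, 28732 bases apart, gave 0.05 and 0.16, and neither passed. Which transcript forms the probes detect was not tested.

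**Figure D5:**
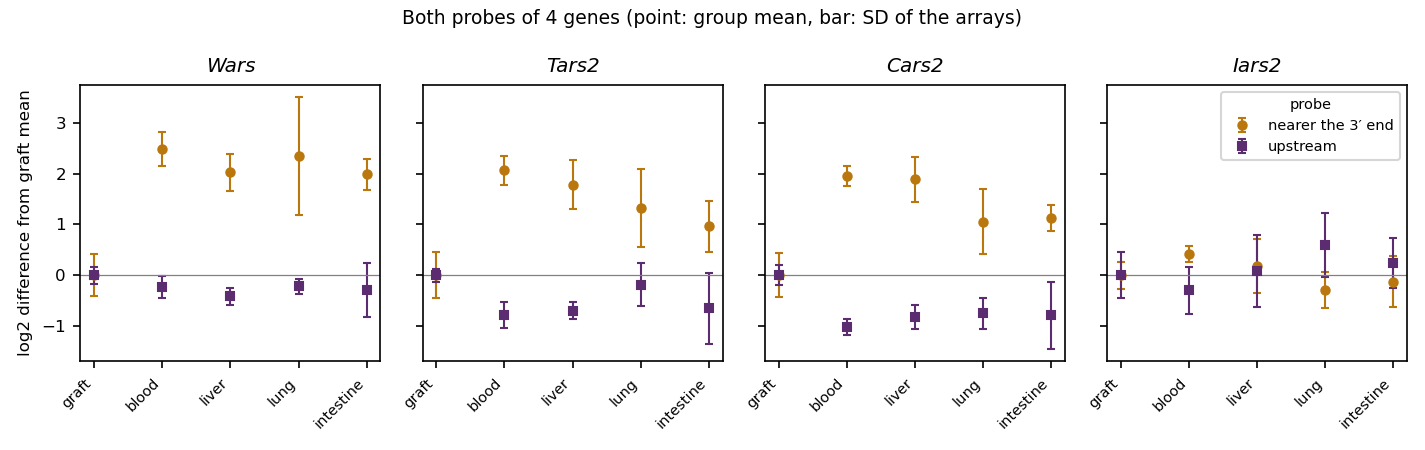
Log2 difference from the graft mean (vertical axis) for both probes of Wars, Tars2, Cars2 and Iars2, by group; points are group means of 4 or 5 arrays and bars the standard deviation of the arrays. In the first 3 genes the probe nearer the 3′ end is above 0 and the upstream probe at or below 0 at every day 4 site.

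The second comparison set the day 4 sites against each other. The group mean was highest in blood for 11 of 15 cytosolic and 9 of 12 mitochondrial genes, and highest in intestine for none of the 27. This ranking was not counted over all tested genes, whose median difference from blood was also negative in intestine and lung, as given below. In the 6 site pairs, 11 differences were called, all of them lower than blood, 9 in intestine and 2 in lung. Limma called 0 synthetases between liver and blood or between the 3 tissues, where at an unadjusted p under 0.05 there were 3 for liver against blood, 10 for lung against liver, 9 for intestine against liver and 2 for intestine against lung. The share of all tested genes called in these pairs is not given here, so the 0 calls cannot be set against it. In intestine against blood 11.5% of all tested genes were called lower, and in lung against blood 0.722%. Each slide held 1 array of every site, so that each difference can also be read within a slide.

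Vars was lower in intestine than in blood, decreased by 1.62 on the log2 scale (SE 0.39, limma adjusted p = 0.0146), and within the 5 slides its intestine minus blood difference was -1.16, -2.13, -0.95, -2.38 and -1.49. It was decreased in lung, by 1.72 (SE 0.39, limma adjusted p = 0.0275), with slide differences of -0.28, -1.13, -1.82, -3.22 and -2.14. Iars was decreased in lung, by 1.62 (SE 0.31, limma adjusted p = 0.0113), with slide differences of -0.60, -1.26, -1.57, -2.06 and -2.62. Each of these differences was negative on 5 of 5 slides. Iars in intestine was lower by 0.94, Cars by 1.02 and Farsb by 1.05 (limma adjusted p = 0.0499, 0.0245 and 0.0499), with Farsb well above background on 2 of 5 intestine arrays.

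Of the mitochondrial genes, Aars2 was well above background on 4 of 5 blood and 0 of 5 intestine arrays. Blood reached at least 1.72-fold the intestine signal (limma adjusted p = 0.0212, fitted difference -1.41), with intestine lower on 5 of 5 slides. Hars2, which in blood was at -0.37 from the graft (limma adjusted p = 0.249), was lower in intestine than in blood, with a difference of -0.95 (SE 0.26, limma adjusted p = 0.0239) and slide differences of -1.10, -1.09, -1.23, -0.79 and -0.54. The fitted difference was -1.86 for Lars2, -1.10 for Tars2 and -0.89 for Yars2 (limma adjusted p = 0.0346, 0.0355 and 0.0418), lower on 4 of 5 slides for Lars2 and on 5 of 5 for the other two. Lars2 was well above background on 4 of 5 blood and 1 of 5 intestine arrays, so its difference rests on dim intestine signals. With the other probe of Tars2 the difference was 0.14.

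These calls between sites depended on single arrays and on the scaling. Without 1 array in turn the count of 11 became 4, 3, 7 and 3 without blood replicate 2, 3, 4 and 5, and 5 and 4 without intestine replicate 1 and 2. It became 24, 22 and 19 without intestine replicate 3, intestine replicate 5 and lung replicate 1. Without lung 4 and intestine 4 there were 7 calls, and Cars, Lars2, Yars2, Farsb and Iars in intestine and Vars in lung were not among them (limma adjusted p from 0.0642 to 0.131). Under 4 other scalings 1 to 4 calls were made, and 15 with normexp background. Vars and Aars2 in intestine and Iars in lung kept their call with any 1 of the 24 arrays left out. Scaled to the 75th percentile of detected probes, however, Vars in intestine lost it (limma adjusted p = 0.0608), as did Aars2 there (0.0707) and under the median of detected probes (0.0675), and Iars in lung lost it with only the groups compared (0.0632). In intestine the call was lost without any 1 of 5 arrays for Hars2 and Cars, 7 for Lars2 and Tars2, 8 for Yars2, 18 for Iars and 20 for Farsb, and in lung without any 1 of 6 for Vars. Gut epithelial genes summed to -1.01 to 7.28 on intestine arrays and to -2.06 to 0.15 on blood arrays. For intestine against blood the median difference was -0.70 over the 27 synthetases, -0.70 over 6 CD8 T cell markers (limma called 0 of them, and 1 was lower at an unadjusted p under 0.05), 2.36 over 6 dendritic cell and macrophage markers and -0.24 over all tested genes. For lung against blood these medians were -0.65, -0.18, 1.98 and -0.23. The part of other cells in these differences was not tested.

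The genes that act beside the synthetases were read in the same fit of day 4 against graft, for which 34.4% of all tested genes were higher and 19.0% lower. Of 26 tested genes of transfer RNA maturation and export, 13 were called higher and 0 lower by limma (1 lower at an unadjusted p under 0.05), with a median of 0.75. Trnt1, which adds the CCA end to which amino acids are joined, was well above background on 0 of 4 graft arrays and reached at least 2.75-fold the graft signal (limma adjusted p = 2.06e-06). Pus1, a pseudouridine synthase, was higher by 2.82 (limma adjusted p = 1.11e-09), and Pop1, a subunit of RNase P, by 2.06 (limma adjusted p = 7.75e-04).

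Of 20 tested cytosolic initiation, elongation and release factors, 11 were called higher and 3 lower. Eif2s1, the subunit of eIF2 that the amino acid sensing kinase phosphorylates, was higher by 2.99 (limma adjusted p = 4.12e-08), and Eif4g1, the scaffold of the cap-binding complex, by 1.87 (limma adjusted p = 4.73e-07). Eef2k, the kinase that inhibits elongation factor Eef2, was lower by a fitted difference of -1.85 (limma adjusted p = 5.08e-06) and well above background on 4 of 4 graft and 1 of 20 day 4 arrays. Eef1d, of the exchange factor for Eef1a1, was at -0.91 (limma adjusted p = 9.65e-05). Eef1a1, which carries charged transfer RNA to the ribosome, was at -0.60 (limma adjusted p = 0.0383), while its second probe gave 0.36. Of 12 tested mitochondrial translation factors and transfer RNA enzymes, 3 were called higher and 4 lower, with a median of -0.42. Gfm1 and Tufm, elongation factors, were higher by 2.25 (limma adjusted p = 4.28e-07) and 0.99 (limma adjusted p = 5.76e-05), and Gatb, a subunit of the enzyme that makes glutaminyl transfer RNA, reached at least 1.43-fold the graft signal (limma adjusted p = 2.55e-05). Trit1, Gfm2, Trmu and Mtif3, which modify transfer RNA or act in initiation and ribosome recycling, were lower, between -0.83 and -0.59.

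Of 23 tested genes of the amino acid response, 13 were called higher and 4 lower, with a median of 0.96. Asns, asparagine synthetase, was well above background on 1 of 4 graft arrays and on all 20 day 4 arrays, and differed by 5.31 (limma adjusted p = 2.75e-09). Psat1, of serine synthesis, was higher by 3.77 (limma adjusted p = 2.03e-09). The genes called lower were Slc1a4, an exchanger of neutral amino acids, at -3.86 (limma adjusted p = 2.49e-08), the transcription factors Atf5 at -0.97 (limma adjusted p = 0.0110) and Atf4 itself at -0.53 (limma adjusted p = 0.0469), and Pycr1, of proline synthesis, at -0.52 (limma adjusted p = 0.0462). Of 14 tested genes of the interferon gamma response, read because Wars belongs to it, 4 were called higher and 1 lower. The list includes Ifng, which encodes the inducing cytokine and is 1 of those called higher. The median was 0.24, close to the median of all genes. The cytokine gene Ifng itself was higher by 5.92 (limma adjusted p = 4.09e-08), Socs1, its feedback inhibitor, by 0.87 (limma adjusted p = 0.0499), and Irf1, a transcription factor of the response, was lower at -1.02 (limma adjusted p = 0.00257).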

How the data were processed

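The data were 24 one-colour Agilent scanner files, 1 per sample, with a log2 table deposited beside them. Processed signal is an intensity that the authors' scanner software had corrected for background, per the file headers (Agilent Feature Extraction, 10.7 per the submitters' processing notes, an earlier version in the headers). The deposited log2 values matched quantile-normalized processed signals with r of 0.99977 or more in every column, and served as an alternative. Other scanner columns, deposited flags of spots above background, mark dim probes. The main value was log2 processed signal minus the array's 75th percentile over gene probes, and the brightest probe that passed stood for a gene. One limma model (limma 3.58.1, R 4.3.3) with a mean per group was fitted to 9423 genes, with Benjamini-Hochberg adjustment and a threshold of 0.05. On data simulated for day 4 against graft over 9423 genes, 39% of changes of 1 and 88% of changes of 2 on the log2 scale were recovered. The simulation changed far fewer genes than were called in the data, so these rates hold for that setting only. Array number and signal limit the precision. Gene names came from accessions or symbols updated through RefSeq, and the set's names from the files. Alternatives were scaling, background, filter, probe choice, weights, blocks and left-out arrays. Named genes were the 4 largest and 2 smallest cytosolic and 3 largest and 2 smallest mitochondrial differences, those called between sites (up to 6), Wars and Wars2, genes whose probes disagree, and in other lists the 3 largest called and those against their list; Aars, Sars and the remaining members are given by value only. The members and lists were chosen with earlier results of these data known, and 1 marker gene is not reported here.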

Additional observations from a re-analysis of the deposited data

Results flagged for a closer look

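Single arrays stood apart from their group by Dixon's criterion at 95% in 7 of 70 combinations of 14 named genes and 5 groups, where chance gives about 1 in 20. The level of Iars on liver 3 was 2.33, and that of Cars on the same array 4.17, both above the other liver arrays. Tars2 on lung 4 was 0.43 and Yars2 on intestine 4 was -1.02, both below their group. Hars2 was 3.56 on graft 3, above the other graft arrays, and 2.78 on intestine 5, above the other intestine arrays. Lars2 on intestine 5, at -0.66, was above its group as well.

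The day 4 difference from the graft was not the same at every site for 9 genes, by limma's test of the difference between 2 sites. Intestine minus blood was -1.62 for Vars, -1.41 for Aars2, -0.95 for Hars2, -1.02 for Cars and -1.86 for Lars2. It was -1.10 for Tars2, -0.89 for Yars2, -1.05 for Farsb and -0.94 for Iars. Lung minus blood was -1.62 for Iars and -1.72 for Vars.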

How the results depend on the processing

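The other scalings were quantile normalization, the 75th percentile of detected probes, the median of detected probes and the authors' deposited log2 table. Of the 27 genes, 15 kept their direction and side of the threshold against the graft in every alternative run. Under those 4 scalings, in that order, the differences were -0.40, -0.35, -0.49 and -0.40 for Farsa, -0.12, -0.15, -0.28 and -0.12 for Hars and -0.24, -0.25, -0.39 and -0.24 for Iars2, all of opposite sign. The cytosolic median was 0.93, 0.94, 0.80 and 0.94, and the mitochondrial 0.61, 0.45, 0.31 and 0.61, with 0.40 under normexp, 0.58 with probes averaged and 0.16 with the stricter filter. Cytosolic genes called lower numbered 1 under quantile normalization, 1 under the median and 1 with the deposited values. The site calls numbered 4, 1, 3 and 4 under these scalings, 4 without a filter, 3 with only the groups compared, 43 with array weights, 18 with slide as a random block (correlation 0.105) and 7 without lung 4 and intestine 4. Mitochondrial genes called higher numbered 4 in blood under the stricter filter. In lung they numbered 1, 2 and 2 (75th percentile of detected, median, normexp) and 7 with array weights. In intestine they numbered 1, 2 and 1, and 2 with only the groups compared. The Sars pair reversed under quantile normalization (-0.0867) and the deposited table (-0.0862). The Tars pair reversed under normexp (0.0348) and with probes averaged (0.80), and Cars2 with probes averaged (0.33). With the dimmer probe of 4 genes, the Cars pair was -0.15, the Tars pair 1.86, Cars2 1.50, Tars2 -0.58, Wars -0.29 and Tars2 in intestine against blood 0.14. Beyond what its own construction sets (fewer genes, arrays or another probe), the cause of each change was not tested.

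With each array left out in turn, cytosolic genes called higher numbered 12 to 13 on day 4, 13 to 15 in blood, 12 to 13 in liver, 12 to 12 in lung and 11 to 12 in intestine. Mitochondrial genes numbered 5 to 7, 7 to 8, 5 to 6, 3 to 5 and 3 to 5. Genes called lower on day 4 numbered 0 to 0 and 2 to 3, and site calls 3 to 24. The cytosolic median was 1.29 to 1.42, the mitochondrial 0.78 to 1.09 and the pair median 0.89 to 1.16. Arrays of the same replicate number share a slide on day 4 but are not stated to share an animal. Their deviations correlated at -0.37 to 0.56 over 30 pairs of arrays, 18 over 0.1, with a median of 0.14. Day 4 arrays of different sites and other numbers gave -0.63 to 0.65 over 120 pairs, 38 over 0.1, with a median of -0.04. With the replicate block the site calls numbered 12 against 11, and on day 4 13 cytosolic and 6 mitochondrial genes were called higher and 2 mitochondrial lower, Ears2 losing its call (limma adjusted p = 0.0546). Slide as a fixed block within day 4, chosen after seeing the data as were the dimmer probe and the removal of 2 arrays, left 9 site calls, without Tars2 and Yars2. Signal near background limits Iars, Rars2, Yars2, Aars2 and Lars2 in the graft to bounds.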
